A study of Mus musculus with 8 samples.

Results

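The splicing factors described here are 84 of the 24630 genes in the deposited expression table of mouse muscle stem cells. They were chosen by symbol alone, as all rows whose name begins with Srsf and a digit, Hnrnp, Sf3a, Sf3b, Snrp, Prpf, Lsm and a digit, U2af or Tra2. The cells came from 8 male C57BL/6 mice, 4 young animals of 4 months and 4 old animals of 22 months, with 1 library per animal. No genotype, allele or treatment is named for either group. Cells of limb muscle were sorted as free of CD45, CD31 and Sca1 and as carrying VCAM, then frozen without culture and sequenced from oligo(dT)-primed cDNA. The comparison asks which splicing factor transcripts differ with age in stem cells that the labels call quiescent.

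Introns are removed by the spliceosome, which is assembled on each intron from small nuclear ribonucleoproteins (snRNPs). Each snRNP holds a small nuclear RNA in a ring of Sm or LSm proteins and carries proteins of its own, among them the SF3A and SF3B complexes of the U2 snRNP and several of the PRPF proteins. U2AF marks the end of the intron, while SR proteins and hnRNP proteins bind along the transcript and steer which sites are used. In skeletal muscle, alternative splicing changes widely as stem cells turn into fibres.

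Values are in RPKM (reads per kilobase and per M reads of a library, where M is the SI prefix mega), rescaled so that the reads in genes of each library are its total ("library totals"). A difference on this scale is a difference in the share of reads. In such bulk libraries, fewer cells of a type and less RNA per cell cannot be told apart. Reads in genes numbered 1.91 to 6.56 M in the 4 young and 20.1 to 24.9 M in the 4 old libraries, so depth and age cannot be told apart. The labelled cell type was checked against its markers. Pax7, which marks satellite cells, stood at 14.7 to 22.6 RPKM in the young libraries and at 8.22 to 13.4 RPKM in the old. Myod1, a myogenic regulator that rises when satellite cells are activated, stood at 411 to 534 RPKM in the young and at 624 to 940.3 RPKM in the old. Myod1 was therefore far above Pax7 in each library. Immediate early and dissociation genes summed to 11284 to 27027 counts per M reads (CPM) over both ages. No reference cells of known state were measured, so the quiescent state the labels name was not tested and is not shown by these values. Vcam1, the marker of the sort, stood at 224 to 386 RPKM in the young and at 369 to 629 RPKM in the old. Ptprc, which encodes CD45, was at or below 2.94 RPKM in each of the 8 libraries. The other markers sorted against were detected at about the level of Pax7. Pecam1, which encodes CD31, stood at 14.2 to 17.8 RPKM in the young and at 5.90 to 17.0 RPKM in the old, and Ly6a, which encodes Sca1, at 14.2 to 31.2 RPKM and 7.28 to 23.03 RPKM. The fibre transcript Acta1 stood at 98.1 to 273 RPKM in the young and at 40.6 to 259 RPKM in the old. Gene coordinates below are those of GENCODE vM21 on GRCm38 (mm10).

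In old stem cells 13 splicing factor transcripts were higher, by 1.31-fold to 1.77-fold, and no tested member was called lower. They were Srsf2 and Srsf7 of the SR proteins, Hnrnpf, Hnrnpa2b1 and Hnrnph2 of the hnRNP proteins, Snrpd1, Snrpd2, Snrpd3 and Snrpa1 of the snRNPs, U2af1, Prpf3, Prpf4b and Lsm7. Of the 84 members, 66 had a mean deposited RPKM of at least 5 and entered a limma test of 5703 genes on log2(RPKM + 1), adjusted by Benjamini-Hochberg and called under 0.05. The deposited scaling, described below, sets old values higher, so a gene could pass this filter through its old libraries. Lsm2 passed with deposited means of 3.28 RPKM in the young and 7.38 RPKM in the old. A gene low in the old libraries could drop out, and the 18 members left out do not enter the counts here. On library totals 13 members were higher, 0 were lower and 53 were not called, while 12.3% of all tested genes were higher and 12.7% were lower. Before adjustment, p was under 0.05 for 21 members on the higher side and for 1 on the lower. The share of all tested genes under that unadjusted threshold was not counted. The members called were 19.7% of those tested. The median log2 fold change was 0.20 over the 66 tested members, with a range of -0.51 to 0.78, and -0.01 over all tested genes. A log2 fold change above 0 was found in 45 of the 66, against 49.2% of all tested genes. In 13 of the 66, all 4 old libraries lay above all 4 young libraries, against 13.8% of all tested genes. Of these, 10 were called, while Srsf10, Prpf39 and Snrpb were not. In no tested member did the old libraries lie wholly below the young, against 13.4% of all tested genes.

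The size of these counts depended on the scaling. On the deposited scaling, whose library sizes are 1.14 to 1.64 times the reads in genes in the young libraries and 0.678 to 0.849 times in the old, 62 of the 66 members were higher, 0 were lower and 4 were not called. There, 68.1% of all tested genes were higher and 1.12% were lower, and the median log2 fold change was 0.64 over all tested genes and 0.87 over the members. All 13 members called on library totals were also called on the deposited scaling. That scaling sets the old values of genes in general higher, so this overlap is no separate support. Below, "rose" is written only of the 13 members called higher on library totals. The 84 members together took 1.73%, 1.71%, 1.59% and 1.71% of the reads in the young libraries and 1.85%, 2.10%, 1.85% and 1.99% in the old. Their summed share was therefore higher in each old library than in any young one. Counted within the reads of the tested genes, the share was 1.73% to 1.98% in the young and 1.96% to 2.20% in the old libraries, and the groups overlapped.

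**Figure D1:**
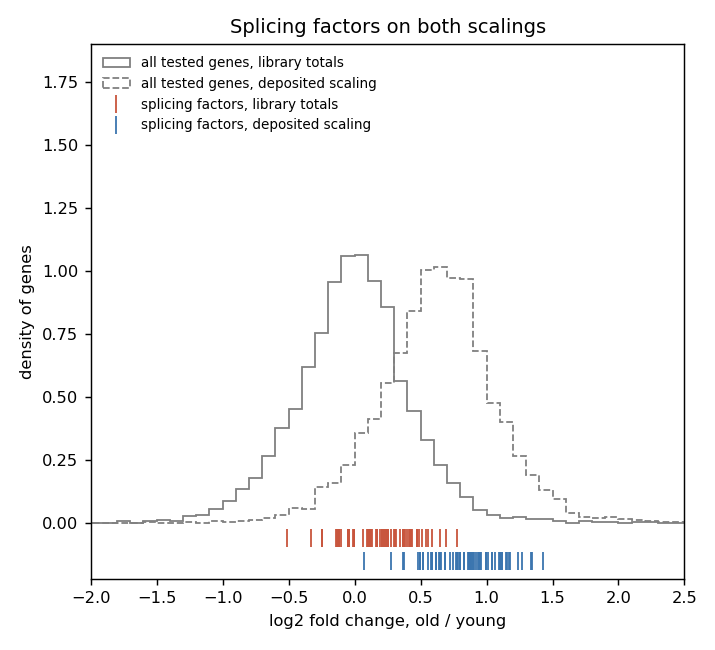
Distribution of log2 fold changes (x axis, old over young) as density (y axis) over all 5703 tested genes on library totals (solid line) and on the deposited scaling (dashed line), with the 66 tested splicing factors as tick marks below. The members have a median of 0.20 on library totals and of 0.87 on the deposited scaling, and all genes have medians of -0.01 and 0.64.

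The count moved by more than 1.5 times when any of 5 libraries was left out. Without young replicate 1, 7 members were higher (9.35% of all tested genes), and without young replicate 3 or old replicate 2, 5 members were higher (9.35% of all tested genes in each fit). In the latter fits the 5 members were 7.58% of those tested, a share below that of all tested genes. The count was 8 without young replicate 4 (9.92% of all tested genes) and 6 without old replicate 4 (8.42% of all tested genes). Lsm7, Prpf3, Hnrnpf, U2af1 and Prpf4b were called in all 8 fits with a library left out, and the other 8 members that rose were called in 2 to 4 of them. Without the shallowest libraries, young replicates 1 and 2, 8 members were higher (8.33% of all tested genes), of which 6 were among the 13, and Lsm6 was lower (9.8% of all tested genes were lower). With reads thinned to equal totals, 8 members were higher against 9.56% of all tested genes. Where the mean had to reach 10 RPKM, 12 of 52 members were higher against 16.1% of all tested genes.

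**Figure D2:**
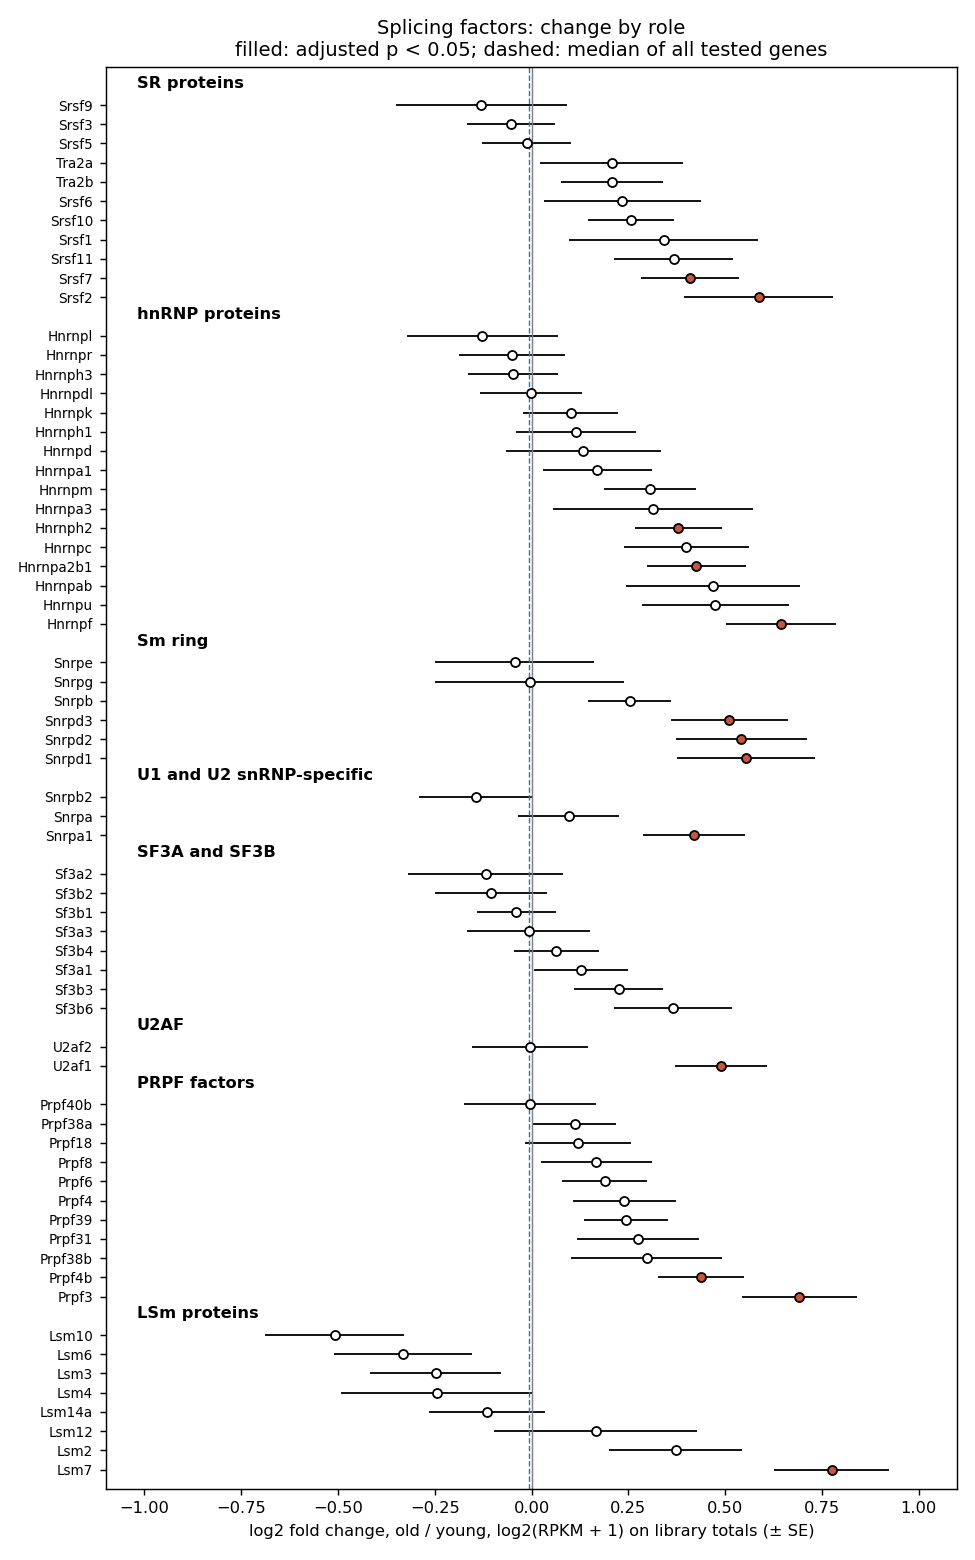
Log2 fold change of old over young on library totals (x axis, log2(RPKM + 1), with standard error bars) for 65 of the 66 tested splicing factors, grouped by role. Filled points are the 13 members past an adjusted p of 0.05, the dashed line is the median of all tested genes (-0.01), and the values run from -0.51 for Lsm10 to 0.78 for Lsm7.

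The SR proteins, which carry arginine-serine repeats and bind exonic enhancers, numbered 13, and 11 were tested. Srsf2 and Srsf7 rose, 18.2% of the tested class against 12.3% of all tested genes. None was lower, against 12.7% of all tested genes, and the class median was 0.23. Srsf2 (SC35, a marker of nuclear speckles), at chr11:116849901-116853094, stood at 44.3, 38.7, 34.4 and 23.5 RPKM in the young libraries and at 53.1, 49.4, 42.4 and 65.9 RPKM in the old. The groups overlapped, with young replicate 1 above old replicate 3. The log2 fold change was 0.59 ± 0.19 (SE, n = 4 per group), with an adjusted p of 0.0456 in limma. The call held in 3 of 8 fits with a library left out, and the adjusted p was 0.130 without old replicate 4. Srsf7, a zinc-knuckle SR protein that also takes part in mRNA export, at chr17:80200080-80207307, had the highest level of all members. It stood at 429.6, 336, 382 and 392 RPKM in the young and at 465, 598, 499 and 488 RPKM in the old libraries, with no overlap. Its log2 fold change was 0.41 ± 0.13 (adjusted p = 0.0358), the call held in 2 of 8 fits with a library left out, and the adjusted p was 0.0959 without old replicate 2.

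The other SR transcripts of high level did not pass the test. Srsf5, which shares its domain plan with Srsf6, stood at 456, 381, 392 and 409.7 RPKM in the young and at 371, 443, 399.5 and 410.4 RPKM in the old libraries. The log2 fold change of Srsf5 was -0.01 ± 0.11, with a 95% interval of -0.26 to 0.24. Srsf3, the smallest SR protein, stood at 119, 133, 118 and 135 RPKM in the young and at 119, 136, 108 and 124 RPKM in the old. For both Srsf5 and Srsf3 the young and old ranges overlapped. Srsf1 (ASF/SF2), the founding member of the family, stood at 18.3, 34.3, 19.6 and 15.4 RPKM in the young and at 28.5, 21.4, 21.5 and 38.7 RPKM in the old. Young replicate 2 and old replicate 4 were high for Srsf1, and its log2 fold change of 0.34 ± 0.24 had an adjusted p of 0.330. Srsf6 stood at 32.6, 46.5, 26.2 and 32.1 RPKM in the young and at 46.6, 29.9, 34.4 and 52.2 RPKM in the old, with the same pair of high libraries and old replicate 1 beside them. Srsf9 stood at 5.84, 11.1, 8.397 and 7.12 RPKM in the young and at 7.56, 5.13, 6.13 and 10.7 RPKM in the old, and had the lowest log2 fold change of the class, -0.13 ± 0.22. The Transformer-2 proteins bind enhancers together with SR proteins. Tra2b stood at 128, 106, 123 and 118 RPKM in the young and at 115, 141, 166 and 130.4 RPKM in the old, and Tra2a at a lower level of 13.5, 22.8, 12.2 and 14.9 RPKM and 21.2, 18.9, 14.4 and 17.9 RPKM. The log2 fold changes were 0.21 ± 0.13 for Tra2b and 0.21 ± 0.18 for Tra2a, neither past the threshold. Srsf10 was the SR transcript outside the 13 whose groups did not overlap, at 52.2 ± 4.97 and 62.3 ± 3.45 RPKM in young and old libraries (SD, n = 4), with an adjusted p of 0.115.

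The hnRNP proteins package nascent transcripts and often act against SR proteins at splice sites. There were 21, of which 16 were tested and 3 rose (Hnrnpf, Hnrnpa2b1 and Hnrnph2), none was lower, and the class median was 0.24. Those that rose were 18.75% of the tested class, against 12.3% of all tested genes, of which 12.7% were lower. The class took 0.768% ± 0.0367 of all reads in the young and 0.923% ± 0.0740 in the old libraries (SD, n = 4), with no overlap. The same held for the PRPF, Sm and U2AF classes. It also held for all tested genes together, with 84.9% to 90.8% of reads in the young and 93.0% to 94.6% in the old libraries. Hnrnpf, which binds runs of guanines, at chr6:117900324-117925622, stood at 121, 112, 103 and 145 RPKM in the young libraries and at 163, 227, 178 and 187 RPKM in the old. All old libraries lay above all young ones. The log2 fold change was 0.64 ± 0.14 with an adjusted p of 0.00869, and the adjusted p was 0.0519 without young replicates 1 and 2. Hnrnph2, an X-linked relative of Hnrnpf, at chrX:134601179-134607060, stood at 71.6, 62.00, 65.8 and 72.2 RPKM in the young and at 84.6, 99.4, 89.2 and 81.6 RPKM in the old, again without overlap. Its log2 fold change was 0.38 ± 0.11 (adjusted p = 0.0294), with the call held in 4 of 8 fits and an adjusted p of 0.0832 without old replicate 2. Hnrnph1, its autosomal copy, stood at 56.3, 65.2, 42.8 and 52.6 RPKM in the young and at 61.7, 54.3, 48.5 and 70.3 RPKM in the old and was not called (log2 fold change 0.11 ± 0.15).

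Among the A/B-type hnRNPs, Hnrnpa2b1, at chr6:51460932-51469894, stood at 229, 258, 222 and 255 RPKM in the young and at 326, 389, 280.1 and 306 RPKM in the old libraries. Each old library was above each young one, the log2 fold change was 0.42 ± 0.13 and the adjusted p was 0.0322. The call held in 2 of 8 fits with a library left out, with an adjusted p of 0.0891 without young replicate 3. Hnrnpa1, a splicing silencer of similar build, stood at 299, 257, 290.3 and 308 RPKM in the young and at 249, 363, 358 and 339 RPKM in the old. Old replicate 1 was the lowest of all 8 libraries for Hnrnpa1 and the other 3 old libraries were the highest, and the log2 fold change of 0.17 ± 0.14 was not called. The processed pseudogene Hnrnpa1l2-ps2 held 6 and 7 reads in young replicates 2 and 4 and at most 2 reads in any other library. Reads of Hnrnpa1 and of such copies may be split by the counting, so both values are uncertain. Hnrnpk, which binds runs of cytosines, stood at 419, 375, 409 and 454 RPKM in the young and at 404, 507, 465 and 406 RPKM in the old libraries, with overlapping groups and a 95% interval of the log2 fold change of -0.17 to 0.37. Hnrnpc, which masks uridine tracts, and Hnrnpu, a chromatin-bound scaffold protein, had log2 fold changes of 0.40 ± 0.16 and 0.47 ± 0.19 and were not called (adjusted p = 0.0921 and 0.0891). Hnrnpl, which binds CA repeats, had the lowest log2 fold change of the class, -0.13 ± 0.19 (adjusted p = 0.664).

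**Figure D3:**
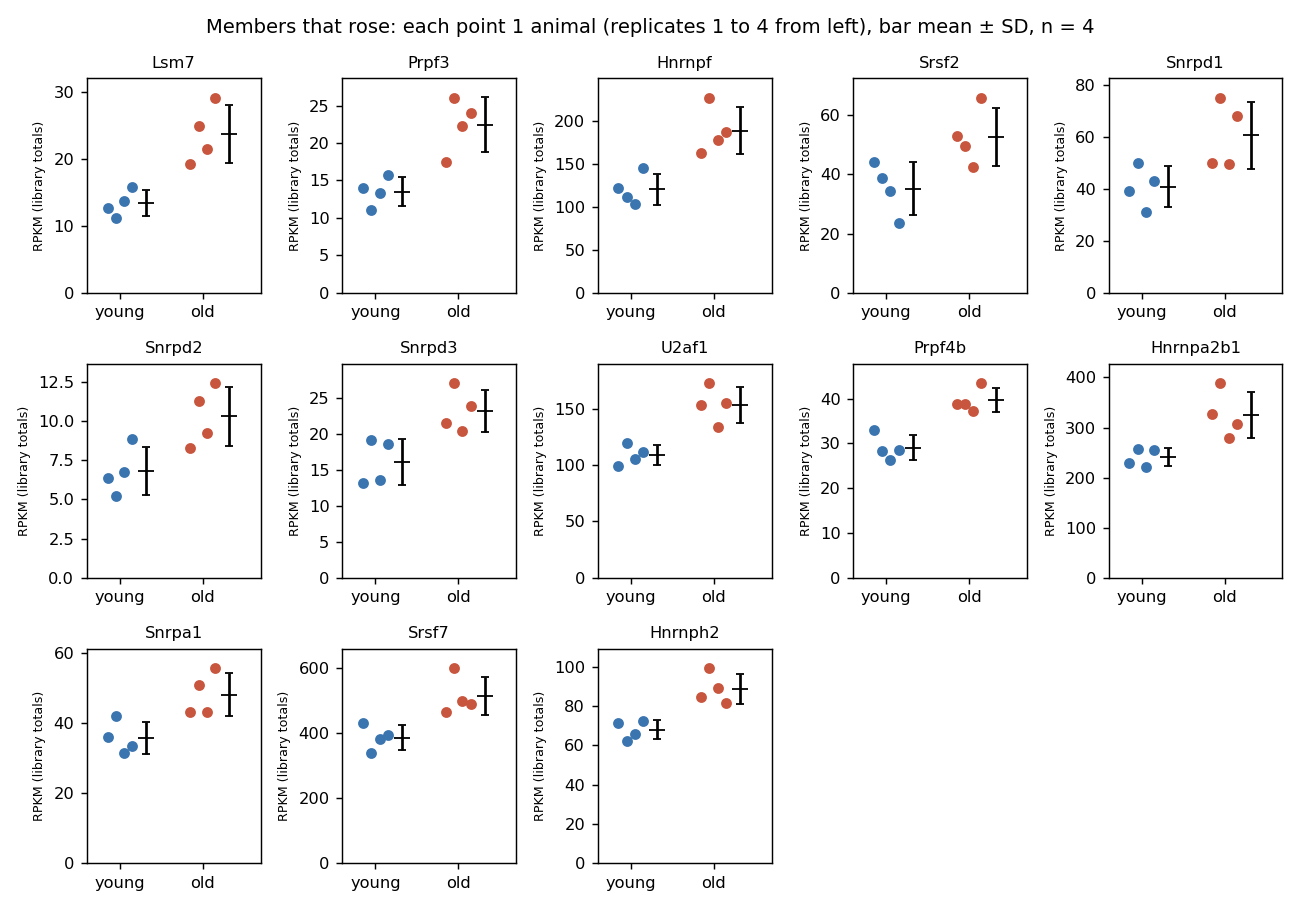
RPKM on library totals (y axis, from 0) of the 13 splicing factors that rose, in young and old animals (x axis), 1 point per animal in replicate order, with the mean ± SD (n = 4) beside the points. In 10 of the 13 panels no old point lies below a young one, and in Srsf2, Snrpd1 and Snrpd2 the groups overlap.

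The Sm proteins form the ring that holds the small nuclear RNA of most spliceosomal snRNPs. Of 8 members 6 were tested, 3 rose, none was lower and the class median was 0.38. This was 50% of few tested genes, beside 12.3% higher and 12.7% lower of all tested genes. The 3 that rose were the D-type proteins. Snrpd1 stood at 39.02, 49.98, 31.2 and 43.04 RPKM in the young libraries and at 49.8, 74.96, 49.3 and 68.1 RPKM in the old. Young replicate 2 lay above old replicates 1 and 3, and the log2 fold change was 0.55 ± 0.18 (adjusted p = 0.0412, and 0.114 without young replicate 3). Snrpd2, at chr7:19149722-19153542, stood at 6.38, 5.19, 6.76 and 8.86 RPKM in the young and at 8.297, 11.3, 9.25 and 12.4 RPKM in the old, where young replicate 4 lay above old replicate 1. Its log2 fold change was 0.54 ± 0.17 (adjusted p = 0.0380, and 0.108 without old replicate 4), and the young values rest on 26 to 132 reads. Snrpd3, at chr10:75517551-75537381, stood at 13.2, 19.2, 13.6 and 18.6 RPKM in the young and at 21.5, 27.1, 20.4 and 23.9 RPKM in the old, with no overlap. Its log2 fold change was 0.51 ± 0.15 (adjusted p = 0.0295, and 0.0867 without young replicate 1). The calls of Snrpd1, Snrpd2 and Snrpd3 held in 3, 3 and 4 of 8 fits with a library left out, and all 3 were lost without young replicates 1 and 2 (adjusted p = 0.0555, 0.211 and 0.0667).

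The remaining Sm proteins were not called. Snrpb, which encodes SmB, stood at 116, 110.1, 120.03 and 127 RPKM in the young and at 130.3, 149.6, 136 and 149 RPKM in the old libraries. Its groups did not overlap, but its log2 fold change of 0.25 ± 0.11 had an adjusted p of 0.106. Snrpe was at 10.1 ± 3.18 and 9.73 ± 2.35 RPKM in young and old libraries, and Snrpg at 8.897 ± 3.64 and 8.38 ± 1.21 RPKM (SD, n = 4). Among proteins particular to the U1 and U2 snRNPs, 1 of 3 tested rose, beside 12.3% of all tested genes. Snrpa1, the U2 A' protein, at chr7:66059003-66074587, stood at 35.9, 42.04, 31.4 and 33.6 RPKM in the young and at 43.1, 50.8, 43.1 and 55.7 RPKM in the old. No old value lay below a young one, the log2 fold change was 0.42 ± 0.13 (adjusted p = 0.0380), and the adjusted p was 0.108 without old replicate 4. Its U2 partner Snrpb2 was at 12.5 ± 2.03 and 11.2 ± 1.55 RPKM in young and old libraries and the U1 protein Snrpa at 30.8 ± 1.99 and 33.2 ± 5.26 RPKM (SD, n = 4), and neither was called.

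The SF3A and SF3B complexes anchor the U2 snRNP at the branch site. Of 9 members 8 were tested and none was called, with a class median of 0.03 and 4 members on each side of 0. Of all tested genes 12.3% were higher, 12.7% were lower and 49.2% lay above 0. At an unadjusted p under 0.05, 1 of the 8 was higher and none was lower, with no share of all tested genes counted there. Sf3b1, at chr1:54985169-55027481, encodes the subunit that clasps the branch site duplex. It stood at 94.8, 89.1, 88.6 and 93.5 RPKM in the young and at 93.2, 93.1, 87.98 and 82.1 RPKM in the old libraries. All 8 values lay close together, and the 95% interval of the log2 fold change was -0.26 to 0.18. Sf3b6, the subunit next to the branch adenosine, had the largest change, 0.37 ± 0.15 (adjusted p = 0.101), and Sf3a2 the lowest, -0.12 ± 0.20 (adjusted p = 0.695). The class took 0.188% ± 0.00581 of the reads in the young and 0.192% ± 0.00406 in the old libraries (SD, n = 4), and these ranges overlapped.

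Of the U2AF genes, the small subunit differed and the large subunit was not called. U2af1, at chr17:31647081-31658892, reads the AG at the end of the intron. It stood at 99.5, 119.7, 105 and 111 RPKM in the young and at 153, 173, 133 and 155 RPKM in the old libraries, and no old value lay below a young one. The log2 fold change was 0.49 ± 0.12 with an adjusted p of 0.0127 in limma. U2af2, which binds the polypyrimidine tract, stood at 8.302, 10.04, 7.64 and 6.37 RPKM in the young and at 7.498, 6.99, 8.25 and 9.28 RPKM in the old. Its log2 fold change was 0.00 ± 0.15, with a 95% interval of -0.33 to 0.32, and the difference between both subunits is tested with the pairs.

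The PRPF proteins, most of them parts of the U4/U6.U5 tri-snRNP, numbered 13, of which 12 were tested and 2 rose. None was lower, 11 of 12 changes were above 0 and the class median was 0.23. Those that rose were 16.7% of the tested class, against 12.3% of all tested genes. Of all tested genes 12.7% were lower and 49.2% lay above 0. Prpf3, a U4/U6 protein, at chr3:95830124-95855885, stood at 14.03, 10.99, 13.3 and 15.7 RPKM in the young libraries and at 17.5, 26.03, 22.3 and 24.1 RPKM in the old. The groups did not overlap, and the log2 fold change was 0.69 ± 0.15 (adjusted p = 0.00741). Prpf4b, a kinase that acts on spliceosomal proteins, at chr13:34875302-34906064, stood at 32.9, 28.2, 26.4 and 28.5 RPKM in the young and at 38.8, 38.9, 37.2 and 43.5 RPKM in the old. Old replicate 3 was the lowest old library and still lay above all young ones, and the log2 fold change was 0.44 ± 0.11 (adjusted p = 0.0154). Prpf8, a large scaffold protein at the catalytic centre, stood at 15.9, 22.4, 16.9 and 16.8 RPKM in the young and at 21.98, 17.95, 17.7 and 23.7 RPKM in the old. Young replicate 2 was as high as the upper old libraries, and the log2 fold change of 0.17 ± 0.14 was not called. Prpf38a stood at 24.03, 25.7, 25.2 and 26.7 RPKM in the young and at 27.7, 31.04, 25.8 and 25.7 RPKM in the old, and Prpf38b at 14.8, 22.7, 14.6 and 12.2 RPKM and 21.6, 18.2, 14.8 and 24.7 RPKM. Prpf40b stood at 5.996, 5.597, 7.27 and 5.75 RPKM in the young and at 5.88, 4.67, 5.798 and 8.59 RPKM in the old. These 3 transcripts had overlapping groups and log2 fold changes of 0.00 to 0.30, none of them called. Prpf39 was the member of this class outside the 13 whose groups did not overlap, at 49.3 ± 2.98 and 58.5 ± 4.46 RPKM (SD, n = 4), with an adjusted p of 0.123.

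The LSm class held both the largest rise and the lowest changes. Of 13 members 8 were tested, 1 rose, none was lower and the class median was -0.18. The 1 that rose was 12.5% of the tested class, near the 12.3% of all tested genes, of which 12.7% were lower. LSm rings bind the U6 small nuclear RNA in the nucleus and decapping substrates in the cytoplasm, and Lsm10 and Lsm11 belong to the U7 snRNP of histone messages. Lsm7, a subunit of both LSm rings, at chr10:80852821-80855209, stood at 12.7, 11.2, 13.7 and 15.8 RPKM in the young libraries and at 19.2, 24.8, 21.5 and 29.1 RPKM in the old. No old value lay below a young one, and the log2 fold change was 0.78 ± 0.15 (adjusted p = 0.00471). The young values of Lsm7 rest on 16, 10, 42 and 42 reads and the old values on 180 to 289 reads. Lsm10 was at 6.33 ± 1.44 and 4.104 ± 0.701 RPKM in young and old libraries (SD, n = 4). It had the lowest log2 fold change of all tested members, -0.51 ± 0.18, and was not called (adjusted p = 0.0581). Lsm6 and Lsm3, other subunits of the U6 ring, had log2 fold changes of -0.33 ± 0.18 and -0.25 ± 0.17 (adjusted p = 0.195 and 0.308), and Lsm2 had 0.37 ± 0.17 (adjusted p = 0.135). Subunits of a single ring therefore had estimates on both sides of 0. The 4 members that were not called on the deposited scaling, Lsm10, Lsm6, Lsm3 and Lsm4, all belong to this class, with log2 fold changes there of 0.07, 0.28, 0.37 and 0.38.

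The 18 members below the filter were followed under lower filters only. Most of them had a log2 fold change below 0 there, and the others lay above 0. Just outside it stood Hnrnpll, Hnrnpa0 and Lsm1, with deposited means of 4.07, 4.23 and 4.68 RPKM, and just inside it Lsm10, Lsm2 and Hnrnpd, with 5.07, 5.33 and 5.77 RPKM. With the filter lowered to a mean of 1 RPKM, 2 members were lower, Snrpn and Lsm10, where 22.3% of all genes tested were lower. Snrpn, the neuronal and imprinted counterpart of Snrpb, stood at 4.47, 3.39, 1.91 and 3.34 RPKM in the young and at 1.92, 2.14, 1.84 and 0.935 RPKM in the old libraries. The groups overlapped, and its log2 fold change was -0.65 ± 0.22 (adjusted p = 0.0479). Snrpn shares its transcript with Snurf, so its reads may be split between them. Hnrnpul1, a relative of Hnrnpu, stood at 3.09, 3.99, 3.14 and 2.92 RPKM in the young and at 2.504, 1.46, 2.13 and 2.43 RPKM in the old, with no overlap and an adjusted p of 0.0507 at that filter. With no filter, Hnrnpul1, Lsm14b and Srsf12 were lower, but so were 35.9% of all genes tested. Srsf4, a speckle protein, stood at 2.92, 4.699, 3.68 and 2.12 RPKM in the young and at 2.97, 1.39, 2.75 and 3.56 RPKM in the old. Prpf19, the ubiquitin ligase that activates the spliceosome, stood at 1.58, 3.45, 1.01 and 3.45 RPKM in the young and at 3.89, 3.305, 0.805 and 2.09 RPKM in the old, with old replicate 3 the lowest of all 8. Neither Srsf4 nor Prpf19 was called at the lower filter (adjusted p = 0.430 and 0.925).

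Levels varied among libraries of one age as well as between ages. The median coefficient of variation of the 66 tested members was 15.1% in the young and 14.8% in the old libraries, beside 15.4% and 14.1% over all tested genes. Young replicate 2, the shallowest library, was the highest of the young for 37 of the 66 members (56.1%), against 36.9% of all tested genes. Old replicate 4 was the highest of the old for 33 members, 50% of them, against 33.0% of all tested genes, and old replicate 3 the lowest for 27 (40.9% against 24.4%). Srsf1 and Hnrnpab, an hnRNP of the A/B type, had both of these libraries at the top of their group. The part of these libraries in the difference between ages was not tested beyond the fits without them.

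**Figure D4:**
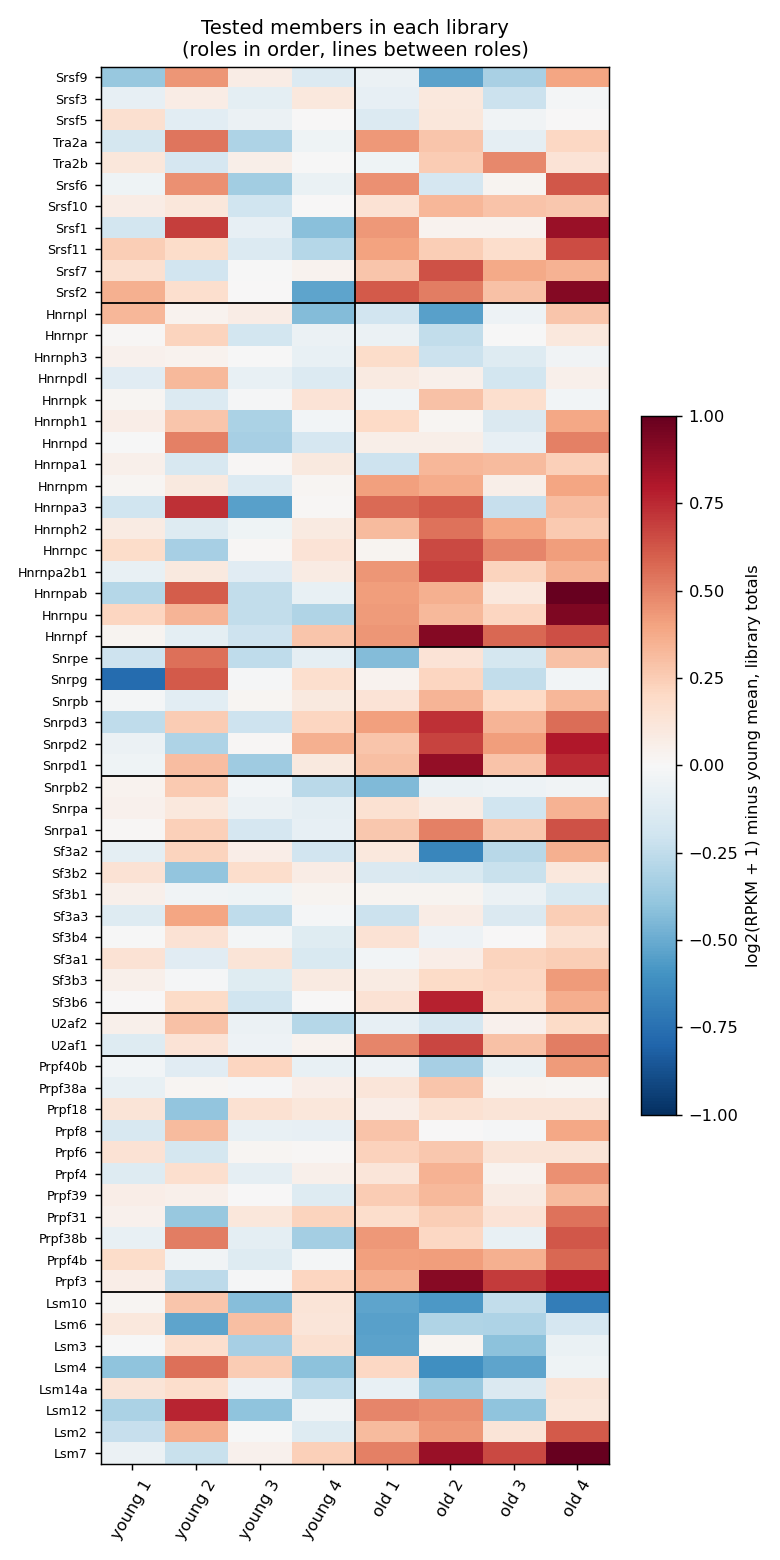
Heat map of 65 of the 66 tested splicing factors (rows, by role) in the 8 libraries (columns), coloured by log2(RPKM + 1) minus the mean of the young libraries, with colours ending at -1 and 1. The members that rose are red in all 4 old columns, and young replicate 2 and old replicate 4 have many of the highest values of their group (37 and 33 of the 66 members).

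The starts of these genes are shown because some of the short motifs searched recur in them. RefSeq windows of 300 bases (250 before and 50 after each start, GRCm38.p6) were found for 72 of the 84 members and 12 of the 13 that rose, 95 windows in all. Both strands were searched for 4 motifs. The ETS core CCGGAAG occurred in 27.4% of the members' windows and in 8.86% of all 32851 windows. The CCAAT box occurred in 47.4% and 37.4%, the E-box CACGTG in 11.6% and 7.15% and the TATA box TATAAA in 8.42% and 13.6%. Members' windows had a median GC content of 60.3%, against 52.7% for all windows, and base composition alone alters such shares. The ETS core was found in 31.6% of the 19 windows of members that rose and in 26.8% of the 56 windows of tested members that were not called. For the E-box these shares were 21.1% and 12.5%, for the TATA box 5.26% and 8.93% and for the CCAAT box 47.4% and 48.2%. Windows of a gene can overlap and share a match, as the 2 windows of Prpf3 share an E-box. Counted by gene, the E-box was found in 3 of 12 members that rose and in 6 of 46 not called. These counts were 4 and 13 for the ETS core, 1 and 5 for the TATA box and 6 and 23 for the CCAAT box. None of these differences was tested. A match is only a run of letters, and no binding was measured. Srsf2, Hnrnpf and Hnrnpa2b1 are printed as members that rose and have a match within a long stretch free of annotated exons. Each runs up to 250 bases before the start, on the strand of the gene, with matches in capitals.
Srsf2 (chr11:116853095-116853294, minus strand, a CCAAT box 82 bases and a TATA box 29 bases before the start): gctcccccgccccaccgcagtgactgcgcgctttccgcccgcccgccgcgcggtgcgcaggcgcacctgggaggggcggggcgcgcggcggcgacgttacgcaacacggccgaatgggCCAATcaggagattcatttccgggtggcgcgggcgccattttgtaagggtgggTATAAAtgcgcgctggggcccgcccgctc
Hnrnpf (chr6:117900090-117900323, plus strand, the first of 4 starts, an ETS core 50 bases before it): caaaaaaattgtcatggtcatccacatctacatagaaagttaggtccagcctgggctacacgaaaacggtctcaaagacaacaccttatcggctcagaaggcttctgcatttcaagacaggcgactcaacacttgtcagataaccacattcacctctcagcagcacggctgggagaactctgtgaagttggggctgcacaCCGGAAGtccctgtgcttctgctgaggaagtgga
Hnrnpa2b1 (chr6:51469895-51470144, minus strand, the first of 2 starts, a CCAAT box read on the other strand 51 bases before it): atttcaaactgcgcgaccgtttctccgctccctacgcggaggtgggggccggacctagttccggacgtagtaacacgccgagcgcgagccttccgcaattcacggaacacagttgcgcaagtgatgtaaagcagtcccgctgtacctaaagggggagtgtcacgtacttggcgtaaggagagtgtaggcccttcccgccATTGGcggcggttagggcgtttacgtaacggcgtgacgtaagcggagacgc

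Paralogues were compared within libraries, as the difference of their log2(RPKM + 1) values, so that a library's scaling weighs little. Over 14 pairs fixed by name, 4 had differences that did not overlap between ages, each with p = 0.0286 in a two-sided exact permutation test (70 assignments), the smallest p that 4 against 4 libraries can give. After adjustment over the 14 pairs each had p = 0.10 (exact permutation test), and no pair passed the threshold. Srsf3 minus Srsf7 was -1.60 ± 0.22 in the young libraries and -2.06 ± 0.12 in the old (SD, n = 4), a shift of -0.46 ± 0.12. Srsf1 lay above Srsf9 by 1.30 ± 0.26 in the young and by 1.77 ± 0.09 in the old libraries (SD, n = 4), a shift of 0.47 ± 0.14. Snrpb lay above its imprinted counterpart Snrpn by 4.84 ± 0.41 in the young and by 5.74 ± 0.36 in the old (SD, n = 4), a shift of 0.90 ± 0.27. Lsm14a, a decapping cofactor, lay above Lsm14b by 2.05 ± 0.17 in the young and by 2.66 ± 0.23 in the old (SD, n = 4), a shift of 0.61 ± 0.14. Lsm14b stood at 1.41, 1.45, 0.686 and 0.911 RPKM in the young and at 0.379, 0.278, 0.166 and 0.249 RPKM in the old, on 8 to 22 reads per library, and the shift was 1.57 with a pseudocount of 0.1. Lsm14a itself stood at 8.47, 8.78, 7.33 and 6.27 RPKM in the young and at 7.22, 5.71, 6.82 and 8.45 RPKM in the old.

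The U2AF subunits differed by 3.61 ± 0.23 in the young and by 4.10 ± 0.27 in the old libraries (SD, n = 4), a shift of 0.49 ± 0.18 with p = 0.0857 in the exact permutation test and an adjusted p of 0.171. The call of U2af1 without one of U2af2 is therefore not a tested difference between them. Tra2a against Tra2b shifted by 0.00 ± 0.32 (exact permutation p = 1), a standard error that does not show that they moved alike. Hnrnpa1 against Hnrnpa2b1 shifted by -0.26 ± 0.18 and Hnrnph1 against Hnrnph2 by -0.26 ± 0.22, with exact permutation p values of 0.2 and 0.257. For the remaining pairs the members' levels were as follows. Hnrnpd, the AU-rich element binder AUF1, stood at 5.15, 7.75, 3.899 and 4.49 RPKM in the young and at 5.43, 5.41, 4.83 and 7.74 RPKM in the old libraries, and its relative Hnrnpdl at 62.7, 85.5, 64.4 and 61.8 RPKM and 72.3, 70.2, 59.6 and 70.3 RPKM. Hnrnpl stood at 18.4, 14.8, 15.2 and 10.4 RPKM in the young and at 12.5, 9.59, 13.9 and 17.6 RPKM in the old, and Hnrnpll at 4.42, 6.18, 2.89 and 2.89 RPKM and 4.56, 3.38, 3.63 and 4.33 RPKM. Hnrnpul2 stood at 1.296, 3.29, 1.65 and 1.63 RPKM in the young and at 1.57, 1.36, 1.504 and 2.15 RPKM in the old. Within each of these pairs the same copy was the higher in all 8 libraries.

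**Figure D5:**
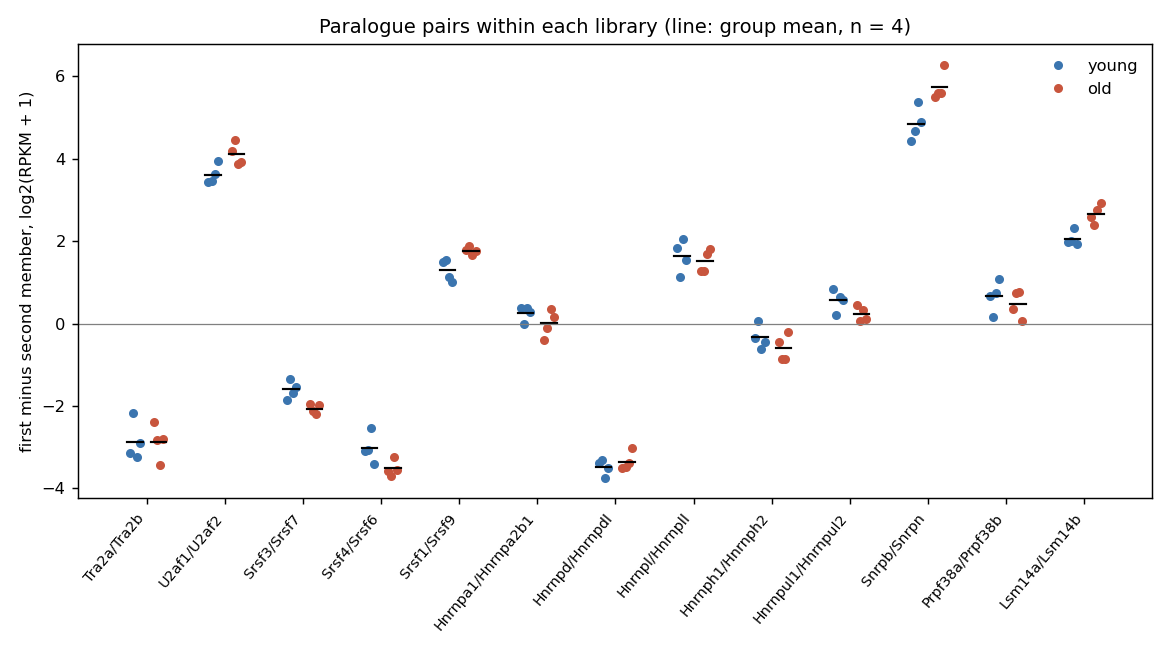
Difference between the log2(RPKM + 1) values of 2 paralogues (y axis, first minus second) in each library for 13 of the 14 pairs (x axis), with young and old libraries as points and group means as lines (n = 4). The old and young points do not overlap for Srsf3/Srsf7, Srsf1/Srsf9, Snrpb/Snrpn and Lsm14a/Lsm14b (adjusted p = 0.10 each in the exact permutation test).

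Other genes of the splicing machinery were taken from 10 lists by name. Of 190 measured genes 141 were tested, and 16 were higher, 6 were lower and 119 were not called, with a median log2 fold change of 0.08. The higher genes were 11.3% of those tested, near the 12.3% of all tested genes, and the lower genes were 4.26%, against 12.7%. On the deposited scaling 120 were higher, 85.1% of those tested against 68.1% of all tested genes, and none was lower. Of 9 tested genes of the SMN complex and Sm ring assembly 3 were higher and none was lower, with a list median of 0.32. Wdr77, the partner of the methyltransferase Prmt5, went from 17.1 ± 4.14 to 28.1 ± 4.23 RPKM (SD, n = 4, adjusted p = 0.0128). Gemin5, which recognises small nuclear RNAs for the SMN complex, went from 4.73 ± 0.515 to 8.02 ± 1.05 RPKM (adjusted p = 0.00711). Of 21 tested snRNP proteins outside the 84 members, 5 were higher and 1 was lower. Phf5a, an SF3B subunit whose symbol falls outside the rule, went from 33.4 ± 3.59 to 48.7 ± 8.74 RPKM (adjusted p = 0.0222). Txnl4a had a log2 fold change of 0.51 ± 0.16 (adjusted p = 0.0345), and Htatsf1, the lower gene, had -0.52 ± 0.17 (adjusted p = 0.0483). Of 6 tested genes of the exon junction complex 1 was higher, Eif4a3, with 0.37 ± 0.12 (adjusted p = 0.0482).

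Of 7 tested regulators of SR proteins, 1 was higher and 1 was lower, 14.3% each. These shares were near the 12.3% higher and 12.7% lower of all tested genes, beside which the list counts below also stand. Among 7 tested kinases, phosphatase and importer genes, Srpk1, a cytoplasmic SR protein kinase, went from 7.60 ± 1.21 to 10.4 ± 0.967 RPKM (SD, n = 4, adjusted p = 0.0414). Clk1, a nuclear SR protein kinase, was lower, with 45.0 ± 8.52 and 29.2 ± 4.59 RPKM in young and old libraries (adjusted p = 0.0175). Of 15 tested SR-related proteins 2 were higher, Pnn and Scaf8, with log2 fold changes of 0.65 ± 0.13 and 0.41 ± 0.12. Of 39 other RNA-binding regulators 3 were higher and 1 was lower. Pcbp3, a poly(C)-binding protein, had the largest rise among all these genes (0.96 ± 0.14, adjusted p = 0.00157), and Fubp1 had 0.57 ± 0.12. Cirbp, a cold-inducible RNA-binding protein, had the lowest value (-0.86 ± 0.17, adjusted p = 0.00548). Scnm1, a factor of the minor spliceosome, had -0.65 ± 0.13 (adjusted p = 0.00654), the sole call among 7 tested genes of that list. None of the 8 splicing helicases was called. Of 10 nonsense-mediated decay genes, 2 were lower (Smg9 and Smg6, log2 fold changes -0.51 ± 0.15 and -0.50 ± 0.16). Cdc5l, a core protein of the Prp19 complex, was the sole call among 20 tested genes of its list (0.47 ± 0.12). Wdr77, Gemin5, Cdc5l, Pnn, Pcbp3, Fubp1, Cirbp and Scnm1 were called in all 8 fits with a library left out. Phf5a, Txnl4a, Htatsf1, Eif4a3, Clk1, Srpk1, Scaf8, Smg9 and Smg6 were called in 1 to 7 of them. The lower calls were lost on the deposited scaling, where Cirbp and Scnm1 had adjusted p values of 0.347 and 0.773.

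Other gene groups moved with age in the same libraries. All 7 tested tenocyte markers of 8 listed were higher, with a list median of 1.75, and their sum was 743 to 1175 CPM in the young and 1952 to 6082 CPM in the old libraries. The defining tenocyte factor Scx was at or below 0.806 RPKM in each library. Of 24 tested immediate early and dissociation genes 12 were lower and 1 was higher, and their sum was 21489 to 27027 CPM in the young and 11284 to 18614 CPM in the old. Of 10 muscle stem cell markers 2 were higher and 4 were lower. Every measured marker of these lists had a read in at least 1 library. Endothelial markers summed to 422 to 479 CPM in the young and 166 to 409 CPM in the old libraries, with no overlap and a median of -0.75 over 5 tested genes, none of them called. Pericyte and smooth muscle markers summed to 1623 to 2026 CPM and 1052 to 1960 CPM, with 2 of 7 tested genes lower, and muscle fibre markers to 315 to 687 CPM and 107 to 680.1 CPM, with none of 5 called. Fibro-adipogenic markers summed to 1610.4 to 2498 CPM and 1316 to 3064 CPM, with 1 higher and 1 lower of 6 tested. Schwann cell markers summed to 134 to 201 CPM and 104 to 224 CPM and erythroid markers to 27.4 to 60.5 CPM and 20.1 to 92.7 CPM, with none called. Leukocyte markers summed to 63.8 to 126 CPM in the young and 26.8 to 78.0 CPM in the old libraries. The part of these groups in the changes of the splicing factors was not tested.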

How the data were processed

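Polyadenylated RNA of sorted muscle stem cells was measured in 8 libraries, 1 per animal. The authors deposited RPKM values for 24630 genes. The submitters' processing notes name STAR, featureCounts of Subread, Trim Galore and edgeR, and the builds mm10 and GRCm38. No version, setting or annotation is given there. In 19039 of 23461 genes with reads the values were multiples of a step worth 1 read at the GENCODE length (tolerance 0.03 reads). For the other 4422, 17 members among them, the length was itself fitted to give whole reads, so these are whole by construction. They hold 20.3% to 21.7% of the reads in genes, from which library totals were taken. Zeros had been replaced by a small value in 7124 genes, and ERCC spike-in rows numbered 0. From the deposited RPKM, values on library totals were computed by dividing out the scaled library sizes. Fits used limma-trend (limma 3.58.1, R 4.3.3) without covariates on log2(RPKM + 1), for genes with a mean deposited RPKM of at least 5, and p-values were adjusted by Benjamini-Hochberg over all 5703 genes. This scale understates changes of low genes. The procedure was tested on simulated data. Precision in the young libraries was limited by 1.91 to 6.56 M reads, 3 reads in a gene of 1 kb being 0.458 to 1.57 RPKM there and 0.121 to 0.149 RPKM in the old. Such floors cover counting error only.

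Members, lists, pairs and tests were chosen with earlier results of these data known. Members named with all values were the 10 with the largest called change, the 5 of highest level, the 14 paralogue pairs and 12 chosen by name. Up to 4 examples per class and the 2 most changed genes per list and direction were added. The values of 1 member are not reported here. Snrpa1, Srsf10 and Prpf39 were named after their values were seen. Alternatives covered scaling, filter, pseudocount, variance model, recovered reads in limma-voom, thinning, replicate number and left-out libraries. Promoter windows came from RefSeq (GRCm38.p6), of which 12 members had none. No source states a stranded count, so a gene and an antisense neighbour may share reads.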

Additional observations from a re-analysis of the deposited data

Results flagged for a closer look

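Each group of 4 libraries was checked for a single library standing apart, for the 41 members that the naming rule picks (82 groups), and chance alone would mark about 1 in 20 of such groups. There were 3. Hnrnpdl, a relative of the AU-rich element binder Hnrnpd, stood at 85.5 RPKM in young replicate 2 against 61.8 to 64.4 RPKM in the other 3 young libraries. In the old libraries Hnrnpdl stood at 59.6 RPKM in replicate 3 against 70.2 to 72.3 RPKM in the other 3. Prpf8, the scaffold of the catalytic centre, stood at 22.4 RPKM in young replicate 2 against 15.9 to 16.9 RPKM in the other young libraries. Neither gene was called between ages. Young replicate 2 had the fewest reads in genes of all 8 libraries, 1.91 M, and the part of its depth in these values was not tested.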

How the results depend on the processing

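The count of 13 higher members became 62 on the deposited scaling (68.1% of all tested genes) and 8 with thinned reads (9.56%). It became 8 without young replicates 1 and 2 (8.33%, an alternative chosen after seeing the data). With 1 library left out it was 5 to 14 (8.42% to 14.1% of all tested genes). The count of 0 lower members became 2 at a mean of at least 1 RPKM (22.3% of all genes tested) and 3 with no filter (35.9%). It was 1 (Lsm10) without the variance trend (12.6% of all tested genes) and 1 (Lsm6) without young replicates 1 and 2 (9.8%). With 1 library left out it was 0 to 1 (8.63% to 14.2% of all tested genes). With no filter 15 members were higher, against 3.54% of all genes tested. The other planned settings with all libraries gave 12 or 13 (7.27% to 16.1% of all genes tested), or 10 in the replicate block (11.2%). Totals taken over genes at annotated lengths alone (an alternative also chosen after seeing the data) gave 13 (12.8% of all tested genes). Without young replicate 2, 14 were higher (14.1% of all tested genes). On the deposited scaling, leaving out 1 library gave 54 to 63 higher (60.4% to 71% of all tested genes). Of the other splicing genes, 16 were higher, against 12.3% of all tested genes. That count was 120 on the deposited scaling (68.1% of all tested genes) and 8 to 23 with 1 library left out (8.42% to 14.1%). The lower count was 6 (12.7% of all tested genes), and 0 on the deposited scaling (1.12%). It was 2 to 7 with 1 library left out (8.63% to 14.2%) and 2 without young replicates 1 and 2 (9.8%). The cause was not tested. Named genes were compared with alternatives 729 times, and 615 kept both direction and side of the threshold. The sign changed in 40, all in 9 genes whose log2 fold change was negative and smaller than its SE. On the deposited scaling these were 0.68 for Srsf5, 0.64 for Srsf3, 0.52 for Hnrnpl, 0.50 for Lsm14a, 0.61 for U2af2, 0.48 for Srsf9, 0.69 for Hnrnpdl, 0.59 for Prpf40b and 0.65 for Sf3b1. Without young replicates 1 and 2 they were 0.015 for Srsf5, 0.054 for Hnrnpl, 0.038 for Lsm14a, 0.17 for U2af2 and 0.11 for Hnrnpdl. With totals over genes at annotated lengths they were 0.00078 for Srsf5, 0.0073 for U2af2, 0.012 for Hnrnpdl and 0.0069 for Prpf40b. With thinned reads they were 0.0015 for Lsm14a and 0.015 for Hnrnpdl, in limma-voom 0.033 for U2af2 and 0.013 for Hnrnpdl, with median-of-ratios scaling 0.00070 for Hnrnpdl, and with a pseudocount of 5 0.0015 for Prpf40b. With 1 library left out the values ran from -0.056 to 0.040 for Srsf5, -0.11 to 0.0023 for Srsf3, -0.27 to 0.010 for Hnrnpl, -0.10 to 0.094 for U2af2, -0.31 to 0.016 for Srsf9, -0.046 to 0.11 for Hnrnpdl and -0.15 to 0.10 for Prpf40b. The pair Tra2a/Tra2b shifted by 0.010 with a pseudocount of 0.1 and by -0.16 to 0.23 with 1 library left out, and the pair Hnrnpl/Hnrnpll by -0.31 to 0.0019. No pair passed the threshold in any setting. Replicate numbers did not pair the animals: deviations of same-numbered libraries correlated across genes at -0.17, -0.06, 0.39 and -0.24. With the replicate block the calls of Hnrnph2, Srsf2 and Srsf7 were lost and no other.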
